A study of Mus musculus with 12 samples.

Results

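The genes described here are the SR proteins and the heterogeneous nuclear ribonucleoproteins (hnRNPs), the main families of RNA-binding proteins that steer splice site choice. They were chosen by name: a gene belonged if a symbol in the deposited gene annotation began with Srsf or Sfrs and a number, or with Hnrnp or Hnrp. The match used no measured value, but the set was chosen with earlier results of these data known. Of 3 genes with more than 1 row (Hnrnpa1, Hnrnpll and Srsf10) the row with the highest mean count was taken. It found 38 genes among the 28427 rows of the table, and all 38 passed the filter on low counts. By role these are 8 SR proteins (Srsf1 to Srsf7 and Srsf9), 20 hnRNPs, 4 further genes with an Srsf name (Srsf10, Srsf11 and rows named Srsf12 and Srsf13b) and 6 genes that carried an Sfrs or Srsf name in the annotation and now have others (Clasrp, Pnisr, Scaf4, Sfswap, Srek1ip1 and Sugp2). They were measured by RNA sequencing in mammary epithelial cells of C57BL/6 mice. The 4 groups, each of 3 libraries, were spheroids at 96 h, monolayers at 96 h, spheroids at 48 h and monolayers at 48 h. Spheroids grew embedded in growth factor-reduced Matrigel, a basement membrane gel, and monolayers on dishes coated with collagen, so culture format and matrix changed together and cannot be told apart. All 4 groups received progesterone and prolactin. The labels record a change of medium at 48 h for the gels only. The series calls the replicates biological, and the sources used here do not give whether each came from a different animal.

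SR proteins hold RNA recognition motifs and a tail rich in arginine and serine. They bind exons, recruit the spliceosome and usually favour exon inclusion, and their activity is set by phosphorylation through the SRPK and CLK kinases. hnRNPs coat nascent transcripts and often act against SR proteins, by covering splice sites or looping exons out. Many genes of both families limit their own expression through so-called poison exons, whose inclusion sends the mRNA to nonsense-mediated decay. In the mammary gland, splicing programmes differ between epithelial and mesenchymal cell states, and hnRNP M and the Esrp proteins are known regulators of that difference.

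The upstream sequences of 6 of these genes are shown. Srsf1, Srsf2, Hnrnpa1 and Hnrnpm were taken as the members that rose most in spheroids at 96 h. Srsf7 and Hnrnpl were added because their windows hold a searched motif, so the motifs in these windows follow from the choice. Each sequence is the 250 bases before the RefSeq start on GRCm38.p6, 5′ to 3′ on the gene's strand, with capitals where a motif was found on either strand. The windows lie at chr11:88047123-88047372 for Srsf1 (plus strand), chr11:116853095-116853344 for Srsf2 (minus strand), chr17:80207306-80207555 for Srsf7 (minus strand), chr15:103240147-103240396 for Hnrnpa1 (plus strand), chr7:28810640-28810889 for Hnrnpl (plus strand), and chr17:33685459-33685708 for Hnrnpm (minus strand).
Srsf1: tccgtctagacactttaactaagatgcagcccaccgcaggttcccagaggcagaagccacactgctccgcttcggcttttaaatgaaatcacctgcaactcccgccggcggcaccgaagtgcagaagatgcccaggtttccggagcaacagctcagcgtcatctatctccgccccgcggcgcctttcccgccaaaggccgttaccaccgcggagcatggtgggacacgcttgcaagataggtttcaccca
Srsf2: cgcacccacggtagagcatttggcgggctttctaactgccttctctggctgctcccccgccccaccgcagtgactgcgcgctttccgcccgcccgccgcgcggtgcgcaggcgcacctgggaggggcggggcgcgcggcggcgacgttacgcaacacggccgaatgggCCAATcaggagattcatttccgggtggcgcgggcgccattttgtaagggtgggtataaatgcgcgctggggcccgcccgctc
Srsf7: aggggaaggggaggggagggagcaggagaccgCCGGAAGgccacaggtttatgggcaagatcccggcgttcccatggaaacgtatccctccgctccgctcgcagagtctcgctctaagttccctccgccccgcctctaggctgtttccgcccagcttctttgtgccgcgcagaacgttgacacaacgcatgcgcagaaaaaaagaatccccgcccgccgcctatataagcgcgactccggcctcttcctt
Hnrnpa1: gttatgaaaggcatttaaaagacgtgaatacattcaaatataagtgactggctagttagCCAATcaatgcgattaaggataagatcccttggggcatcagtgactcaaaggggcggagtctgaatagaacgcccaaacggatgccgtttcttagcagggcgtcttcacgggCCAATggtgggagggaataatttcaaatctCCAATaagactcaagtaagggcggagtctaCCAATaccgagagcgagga
Hnrnpl: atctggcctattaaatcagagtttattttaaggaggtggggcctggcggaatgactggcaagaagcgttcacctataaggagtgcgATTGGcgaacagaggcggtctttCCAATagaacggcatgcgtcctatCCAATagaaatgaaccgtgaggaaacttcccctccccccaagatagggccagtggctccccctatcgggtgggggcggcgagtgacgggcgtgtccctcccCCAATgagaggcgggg
Hnrnpm: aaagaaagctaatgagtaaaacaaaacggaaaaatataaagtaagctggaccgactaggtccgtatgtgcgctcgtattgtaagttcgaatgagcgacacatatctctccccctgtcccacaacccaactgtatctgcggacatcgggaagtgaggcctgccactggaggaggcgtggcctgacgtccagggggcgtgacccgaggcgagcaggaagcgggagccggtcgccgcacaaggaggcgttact

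RefSeq windows were found for 33 of the members, 48 windows in all, some of which overlap each other in the same gene. CCAAT (the CCAAT box, bound by NF-Y) stood in 17 of the 27 hnRNP windows (63.0%), in 2 of the 10 SR protein windows (20%) and in 33.8% of all 32851 windows in the table. Overlapping windows of Hnrnpa2b1 share the same copy, as do overlapping windows of Hnrnph1, so the 17 windows include repeats of a copy. The windows of Hnrnpa1, Hnrnpc and Hnrnpl, and a window of Hnrnpr, each hold 4 copies. CCGGAAG, a core bound by ETS factors, stood in 4 SR protein windows (40%) and 3 hnRNP windows (11.1%), against 6.91% of all windows. These SR protein windows were those of Srsf5 and Srsf7 and overlapping windows of Srsf4. The Srsf4 windows start at bases 131873387 and 131873389 and share the same copy, which was thus counted more than once. CACGTG, the E-box bound by Myc and related factors, stood in 8.33% of the members' windows and 6.02% of all windows. TGACGTCA, the cAMP response element, stood in none of the members' windows and in 1.55% of all windows. None of the 4 motifs contains another, and the windows printed for Srsf1 and Hnrnpm hold none of the 4. These counts describe letters in a window, not binding.

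The annotation also sets the families apart in a feature the names do not use. In GENCODE vM21, all 8 SR protein genes have at least 1 transcript annotated as a target of nonsense-mediated decay, against 10 of 20 hnRNP genes (50%) and 28.0% of 11759 tested genes matched by symbol. The matched members have a median of 9 annotated transcripts a gene, the tested genes 5, and a gene with more transcripts has more chances to hold such a one. The deposited table counts genes, so the shares of productive and decay-targeted transcripts in these cultures could not be read from it.

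Library totals lay between 7674105 and 13554497 counts. Culture format separated along the first principal component, with 59.6% of the variance. Replicate 3 of the 48 h monolayers stood apart from replicates 1 and 2 of its group, with chi-square over degrees of freedom at 18.4 and 9.76, against 2.49 to 6.95 for all other replicate pairs of a group. The counts of members called in comparisons that involve the 48 h monolayers are therefore given with and without it. Genes of proliferation moved in the same direction as most members: the summed level of 15 such genes was 2406 to 2540 CPM (read counts scaled to library size) in 96 h spheroids and 249.5 to 314 CPM in 96 h monolayers, and 2161 to 2171 CPM in 48 h spheroids and 1106 to 1155 CPM in 48 h monolayers. Their part in the results was not tested. Markers of the labelled cell type were abundant, with Epcam at 1171 ± 5.29 CPM in 96 h spheroids, 909 ± 46.5 CPM in 96 h monolayers, 849.8 ± 30.7 CPM in 48 h spheroids and 1363 ± 121 CPM in 48 h monolayers (SD, n = 3 each). The 6 epithelial markers together reached 5978 to 6250 CPM in 96 h spheroids and 4074 to 4351 CPM in 96 h monolayers, and 5743 to 6128 CPM in 48 h spheroids and 9366 to 10740 CPM in 48 h monolayers. Of these 6, 5 were higher in spheroids at 96 h, and 2 (Krt5 and Krt14) were higher and 4 lower at 48 h. For these and the marker counts below, 37.3% and 36.5% of all tested genes were called higher and lower at 96 h. At 48 h the shares were 31.6% and 26.4%. Krt14, a basal keratin, was at 908 ± 5.83 CPM in 96 h spheroids, 73.6 ± 8.72 CPM in 96 h monolayers, 1033 ± 43.7 CPM in 48 h spheroids and 494 ± 36.0 CPM in 48 h monolayers (SD, n = 3 each). The 6 fibroblast markers summed to 640.3 to 694 CPM in 96 h spheroids, 1663 to 2273 CPM in 96 h monolayers, 1878 to 2140 CPM in 48 h spheroids and 7549 to 8320 CPM in 48 h monolayers. Of these 6, 1 was higher and 4 were lower in spheroids at 96 h, and 2 were higher and 3 lower at 48 h. The 5 endothelial markers summed to 26.1 to 32.3 CPM in 96 h spheroids, 57.9 to 61.6 CPM in 96 h monolayers, 49.9 to 56.1 CPM in 48 h spheroids and 35.0 to 49.7 CPM in 48 h monolayers. Of these 5, 1 (Vwf) was higher and 4 lower in spheroids at 96 h, and 1 (Vwf) was higher and 2 lower at 48 h. The 4 immune markers analysed summed to 3.67 to 6.09 CPM in 96 h spheroids, 20.4 to 30.1 CPM in 96 h monolayers, 4.75 to 6.53 CPM in 48 h spheroids and 2.06 to 3.4 CPM in 48 h monolayers. Of them only Cd68, a macrophage marker, passed the filter. It was lower in spheroids than in monolayers at 96 h (log2 fold change -2.31 ± 0.18, SE), higher in spheroids at 48 h (1.00 ± 0.26, SE) and higher at 96 h than at 48 h in monolayers (3.34 ± 0.21, SE), and Cd3e, Ptprc and Adgre1 stood at or near 0. The 5 adipocyte markers summed to 273 to 305 CPM in 48 h spheroids and to 30.8 to 78.4 CPM in the other libraries, nearly all of it from Fabp4, with Adipoq and Lep at or near 0. The part of these other markers in the results was not tested either.

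Levels of different members were compared per length, as FPKM (fragments per kilobase of transcript, scaled to library size). Averaged over the 12 libraries, Hnrnpk, a poly-C-binding protein, was the most abundant member at 401 FPKM, followed by Hnrnpa2b1 at 336 FPKM, Hnrnpab at 317 FPKM and Hnrnpa1 at 274 FPKM. Of the SR proteins, Srsf5 averaged 184 FPKM, Srsf2 172 FPKM and Srsf3 106 FPKM over all libraries. The order of the first 2 differed between the formats: Srsf2 was above Srsf5 in 96 h spheroids (224 and 174 FPKM) and 48 h spheroids (211 and 199 FPKM), and below it in 96 h monolayers (89.8 and 169 FPKM) and 48 h monolayers (162 and 196 FPKM). By the mean over all libraries, Srsf4 was the least abundant at 28.7 FPKM. The row named Srsf13b was at the bottom with 0.253 FPKM, from 99 counts over all libraries. Within one gene, levels are given as CPM. RSEM, the authors' counting program, divides reads between similar genes, so the values of close relatives such as Hnrnph1 and Hnrnph2, or of Hnrnpa1 and its other rows, are uncertain to that extent. The sources used here do not give the strand setting, and exons of 13 of 36 members checked in GENCODE overlap exons of a gene on the other strand, among them Srsf2 with Mfsd11 and Mettl23, Hnrnpk with Rmi1, and Hnrnpu with Cox20. Reads from such pairs may not have been told apart.

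**Figure D1:**
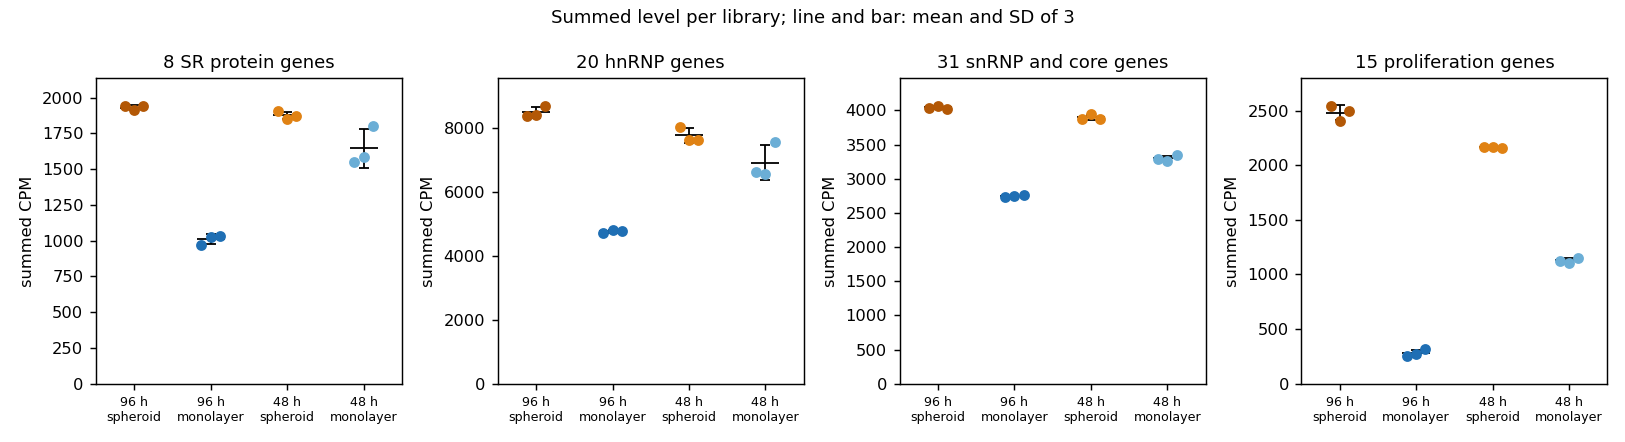
Summed level per library, in CPM, of the 8 SR protein genes, the 20 hnRNP genes, 31 genes of the snRNPs and core spliceosome, and 15 proliferation genes, in the 4 groups; points are libraries, and the line and bar are the mean and SD of 3. The 96 h monolayers are lowest in all 4 panels, and replicate 3 of the 48 h monolayers is the highest of its group for SR protein and hnRNP genes.

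Summed over the 8 SR protein genes, the level was 1941, 1911 and 1940 CPM in 96 h spheroids, against 974, 1028 and 1035 CPM in 96 h monolayers. At 48 h it was 1904, 1852 and 1875 CPM in spheroids, against 1551, 1583 and 1804 CPM in monolayers. The 20 hnRNP genes summed to 8383, 8403 and 8686 CPM in 96 h spheroids and 4716, 4811 and 4781 CPM in 96 h monolayers, and to 8037, 7641 and 7639 CPM in 48 h spheroids and 6630, 6565 and 7550 CPM in 48 h monolayers. For each family the 96 h monolayers stood apart from the other 3 groups, and spheroids did not overlap monolayers at either time. The values are relative to all counted RNA in a library. In such bulk samples, fewer cells of a type and less RNA per cell cannot be told apart.

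At 96 h, most SR protein and hnRNP mRNAs were more abundant in spheroids than in monolayers. Srsf1 and Srsf2 were 2.76-fold and 2.73-fold higher, and Hnrnpa1 and Hnrnpm were 2.48-fold and 2.40-fold higher. Of the 38 members, 28 were higher and 3 lower in the quasi-likelihood test of edgeR (Benjamini-Hochberg adjusted p below 0.05), where 37.3% and 36.5% of the 13951 tested genes were called higher and lower (73.8% either way). The median log2 fold change was 0.61 over the members and -0.00147 over all tested genes. In 8 members the change was over 2-fold: 5 hnRNPs and 2 SR proteins, which rose, and the row named Srsf13b, which fell. Of all tested genes, 29.8% were called with a change over 2-fold. Spheroids and monolayers did not overlap for 31 of the 38 members and for 78.9% of the tested genes.

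Of the 8 SR proteins, 7 rose in 96 h spheroids, with a median log2 fold change of 0.93 over all 8. Srsf1, the founding SR protein and a known oncogene in mammary cells, was at 389, 378 and 399 CPM in 96 h spheroids, against 126, 145 and 151 CPM in 96 h monolayers (log2 fold change 1.47 ± 0.072 (SE), adjusted p = 2.01e-12). Srsf2, a marker protein of nuclear speckles, was at 424, 409 and 428 CPM in spheroids, against 142, 164 and 157 CPM in monolayers (log2 fold change 1.45 ± 0.080 (SE), adjusted p = 1.09e-11). For both genes the lowest spheroid library stood above the highest monolayer library by more than the spread within either group. Srsf3 and Srsf7, which also serve as adaptors of mRNA export, rose by nearly equal amounts: Srsf3 was at 354, 354 and 364 CPM in spheroids, against 166, 188 and 185 CPM in monolayers (log2 fold change 0.99 ± 0.075 (SE), adjusted p = 1.01e-09). Srsf7 was at 98.1, 109 and 102 CPM in spheroids, against 47.4, 51.9 and 55.8 CPM in monolayers (log2 fold change 0.99 ± 0.077 (SE), adjusted p = 1.38e-09). Srsf4, Srsf6 and Srsf9 rose less, with log2 fold changes of 0.86 ± 0.063, 0.73 ± 0.067 and 0.45 ± 0.078 (SE). Srsf5 did not pass the test: its libraries held 277, 270.1 and 251 CPM in spheroids and 251, 233 and 246 CPM in monolayers, and the groups overlapped (log2 fold change 0.13 ± 0.070 (SE), adjusted p = 0.113).

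Of the 20 hnRNPs, each by the row used, 19 rose in 96 h spheroids and none fell, with a median log2 fold change of 0.74. None fell at an unadjusted p below 0.05 or with the DESeq2 Wald test either (0 each). Hnrnpa1, which binds splicing silencers and often opposes Srsf1, was at 688, 688 and 713 CPM in spheroids, against 279, 286 and 276 CPM in monolayers (log2 fold change 1.31 ± 0.078 (SE), adjusted p = 2.92e-11). Hnrnpm was at 366, 357 and 376 CPM in spheroids, against 149, 154 and 154 CPM in monolayers (log2 fold change 1.27 ± 0.075 (SE), adjusted p = 2.93e-11). In both genes the spheroid values lay above all monolayer values with a wide gap. The A/B group, which holds related proteins with paired RNA recognition motifs, ran from 0.69 for Hnrnpa0 to 1.31 for Hnrnpa1 on the log2 scale, with Hnrnpa2b1 at 0.94 ± 0.073, Hnrnpa3 at 1.07 ± 0.083 and Hnrnpab at 1.14 ± 0.073 (SE). Hnrnpl, which binds CA-rich elements, rose by 1.14 ± 0.074 (SE), and its relative Hnrnpll, known for CD45 splicing in T cells, by 0.52 ± 0.059 (SE). The other row of Hnrnpll, with 397 counts in all, was called lower in 96 h spheroids (log2 fold change -0.98, adjusted p = 0.000438). A further row of Hnrnpa1, with 56 counts, was called higher (log2 fold change 3.75, adjusted p = 0.0212). The H/F group, which binds G-rich runs, was uneven: Hnrnpf and Hnrnph2 rose by 0.76 ± 0.060 and 0.77 ± 0.067 (SE), Hnrnph1 rose by 0.34 ± 0.071 (SE), and Hnrnph3 did not pass the test. Hnrnph3 was at 23.1, 24.9 and 23.2 CPM in spheroids, against 26.6, 21.9 and 20.4 CPM in monolayers (log2 fold change 0.04 ± 0.10 (SE), adjusted p = 0.717). Among the other abundant members, Hnrnpk rose by 0.67 ± 0.067 (SE), Hnrnpc, which packages nascent transcripts, by 0.55 ± 0.065 (SE), and Hnrnpu, a nuclear scaffold protein, by 0.41 ± 0.068 (SE). Hnrnpd (AUF1, which binds AU-rich mRNAs and speeds their decay) rose by 0.96 ± 0.078 (SE), while its close relative Hnrnpdl rose by 0.31 ± 0.058 (SE). Hnrnpul1 and Hnrnpul2, relatives of Hnrnpu, rose by 0.83 ± 0.069 and 0.72 ± 0.065 (SE), and Hnrnpr by 0.38 ± 0.078 (SE).

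The remaining 10 genes did not share this pattern. Of the 4 further Srsf names, Srsf10 rose and Srsf11 and Srsf13b fell, and of the 6 renamed genes Sfswap rose and Pnisr fell. Pnisr, a serine/arginine-rich protein that binds pinin, was at 67.8, 56.2 and 55.0 CPM in 96 h spheroids, against 97.0, 89.9 and 85.2 CPM in 96 h monolayers (log2 fold change -0.60 ± 0.10 (SE), adjusted p = 3.25e-05), with no overlap. Srsf11 was at 141, 118 and 127 CPM in spheroids, against 165, 163 and 144 CPM in monolayers (log2 fold change -0.29 ± 0.084 (SE), adjusted p = 0.00475), and the gap between the groups was narrow. Srsf10, a splicing repressor that becomes active when dephosphorylated, was at 115, 109 and 121 CPM in spheroids, against 87.0, 93.9 and 92.8 CPM in monolayers (log2 fold change 0.33 ± 0.063 (SE), adjusted p = 0.000115), but on the deposited log2 FPKM values it did not pass the test (adjusted p = 0.616). Sfswap, named after the suppressor of white-apricot of the fly, rose by 0.29 ± 0.091 (SE), a call that was lost on log2 FPKM values, with upper-quartile scaling and without replicate 1 of the 96 h spheroids (highest adjusted p = 0.511). The row named Srsf13b fell (log2 fold change -1.77 ± 0.54, SE) on few counts, and its call was lost without replicate 1 of the 96 h monolayers (adjusted p = 0.0599). Srsf12, Clasrp, Scaf4, Srek1ip1 and Sugp2 did not pass the test, with log2 fold changes from -0.12 to 0.13.

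**Figure D2:**
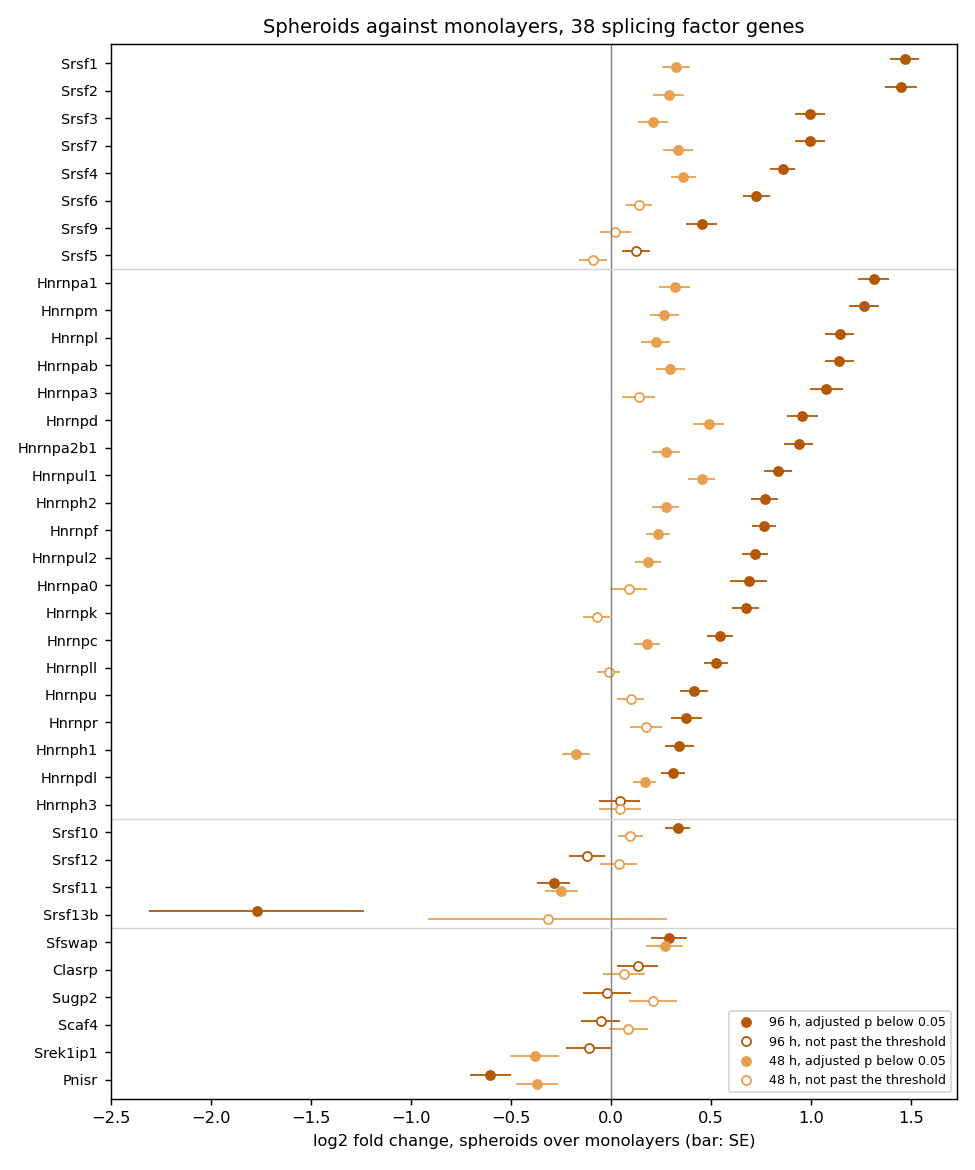
Log2 fold change of spheroids over monolayers for each of the 38 genes at 96 h (dark) and 48 h (light), with the SE as a bar; filled points passed the adjusted p threshold of 0.05, and grey lines divide SR proteins, hnRNPs, further Srsf names and renamed genes from top to bottom. All SR protein and hnRNP points at 96 h lie above 0, and Srsf1 and Srsf2 reach 1.47 and 1.45.

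At 48 h most SR protein and hnRNP mRNAs again had higher means in spheroids, with smaller median differences. Of the 38 members, 18 were higher and 4 lower in spheroids (edgeR, adjusted p below 0.05), where 31.6% and 26.4% of tested genes were called higher and lower (57.9% either way). The members' share called in either direction was also 57.9%. The median log2 fold change was 0.17 over the members and 0.05 over all tested genes, and no member changed over 2-fold. Groups did not overlap for 21 of 38 members and for 60% of tested genes. Without replicate 3 of the 48 h monolayers, 22 members were higher and 3 lower. Without replicate 2 of that group 12 were higher and 3 lower, and with the 48 h libraries fitted alone 12 were higher and 4 lower. The 18 that rose comprised 5 SR proteins, 12 hnRNPs and Sfswap.

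The 4 largest rises at 48 h were in other genes than the 4 largest at 96 h. Hnrnpd was at 136, 131 and 128 CPM in 48 h spheroids, against 84.7, 87.5 and 109 CPM in 48 h monolayers (log2 fold change 0.49 ± 0.079 (SE), adjusted p = 3.47e-05). Hnrnpul1 was at 212, 212 and 211 CPM in spheroids, against 171, 155 and 138 CPM in monolayers (log2 fold change 0.45 ± 0.069 (SE), adjusted p = 1.88e-05). Neither gene's groups overlapped, and the 3 spheroid libraries of Hnrnpul1 were nearly equal. Among SR proteins, Srsf4 was at 78.0, 79.1 and 79.8 CPM in spheroids, against 59.1, 59.5 and 65.7 CPM in monolayers (log2 fold change 0.36 ± 0.062 (SE), adjusted p = 6.91e-05). Srsf7 was at 107, 104 and 109 CPM in spheroids, against 76.4, 85.9 and 91.1 CPM in monolayers (log2 fold change 0.34 ± 0.075 (SE), adjusted p = 0.000827), again with no overlap. Srsf1, Srsf2 and Srsf3 rose by 0.32 ± 0.070, 0.29 ± 0.078 and 0.21 ± 0.074 (SE). The Srsf3 call was lost without replicate 1 or 2 of the 48 h monolayers and without replicate 2 or 3 of the 48 h spheroids (highest adjusted p over all settings 0.101). Srsf5, Srsf6 and Srsf9 did not pass, with log2 fold changes of -0.09, 0.14 and 0.02. Of the hnRNPs, Hnrnpa0, Hnrnpa3, Hnrnph3, Hnrnpk, Hnrnpll, Hnrnpr and Hnrnpu did not pass, and Hnrnpk, the most abundant member, was at 948, 909 and 899.6 CPM in spheroids, against 889.7, 988 and 1022 CPM in monolayers, which overlapped.

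Srek1ip1, Pnisr, Srsf11 and Hnrnph1 fell in 48 h spheroids. Srek1ip1, which binds the splicing regulator Srek1, was at 14.5, 11.9 and 11.7 CPM in spheroids, against 14.9, 18.6 and 16.3 CPM in monolayers (log2 fold change -0.38 ± 0.12 (SE), adjusted p = 0.0118). Pnisr was at 71.3, 53.0 and 54.7 CPM in spheroids, against 83.4, 76.5 and 72.6 CPM in monolayers (log2 fold change -0.37 ± 0.10 (SE), adjusted p = 0.00529), so it was lower in spheroids at both times. Srsf11 was at 146, 123 and 125 CPM in spheroids, against 169, 149.8 and 149.9 CPM in monolayers (log2 fold change -0.25 ± 0.084 (SE), adjusted p = 0.0171). These 3 genes had no overlap between the groups. Hnrnph1 was at 304, 269.7 and 259 CPM in spheroids, against 314, 300 and 328 CPM in monolayers, which overlapped (log2 fold change -0.18 ± 0.071 (SE), adjusted p = 0.0411). Among the rows used, Hnrnph1 was the only hnRNP called lower in spheroids in a comparison of the formats, and at 96 h it was called higher. With total-count scaling 1 of these 4 calls was kept and on log2 FPKM values 2, and leaving out single libraries ended some of them. The Srek1ip1 call was lost without replicate 2 of the 48 h monolayers or replicate 3 of the 48 h spheroids (highest adjusted p over all settings 0.076), and the Srsf11 call without replicate 1 of the 48 h monolayers or replicate 2 or 3 of the 48 h spheroids (highest 0.324). The Hnrnph1 call was lost without replicate 1 or 3 of the 48 h monolayers, 2 or 3 of the 48 h spheroids, or 1 or 3 of the 96 h spheroids (highest 0.429).

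**Figure D3:**
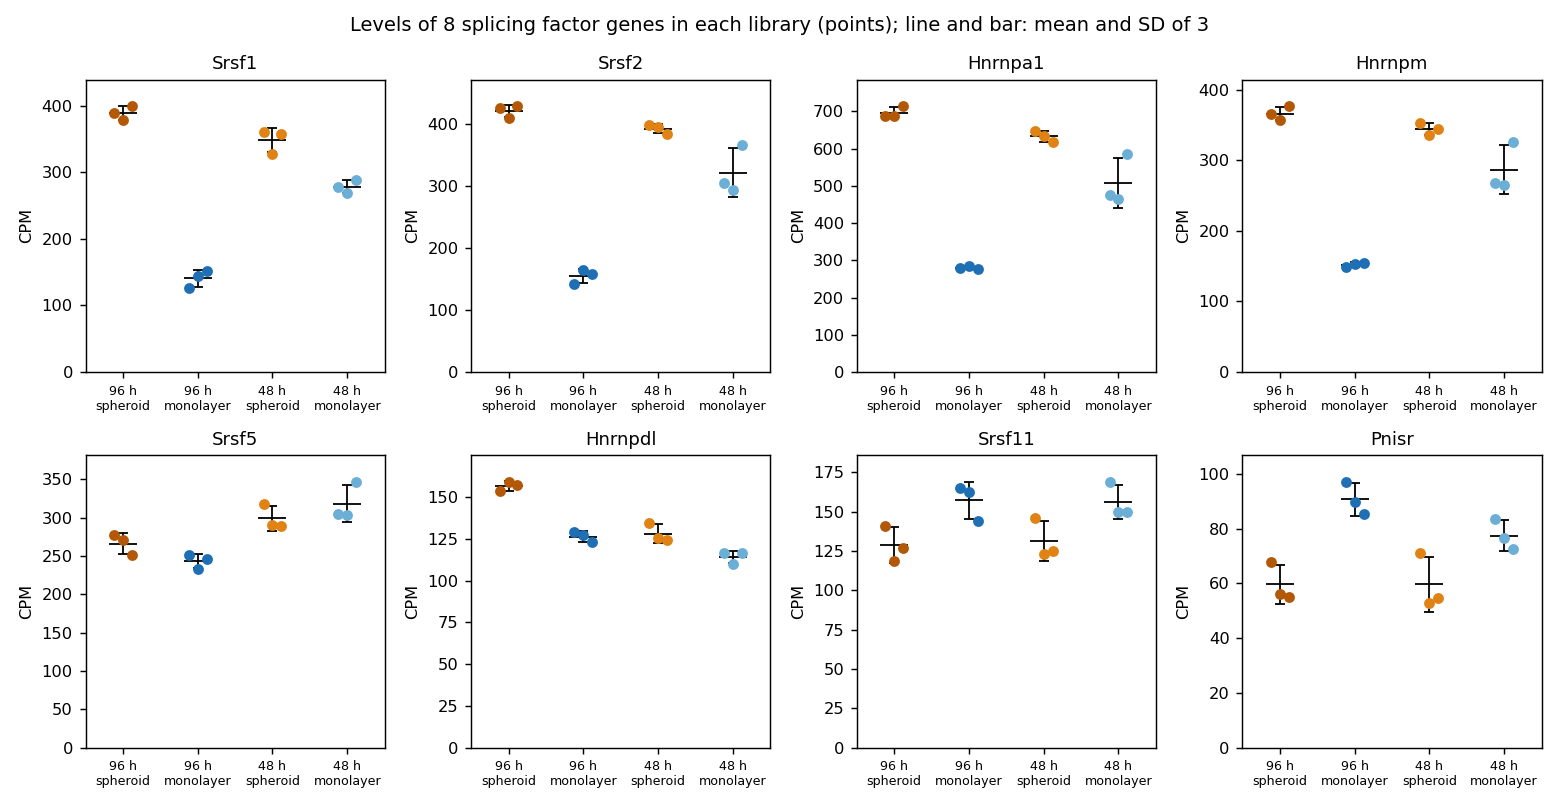
CPM in each library (points) with mean and SD of 3 (line and bar). The upper row holds Srsf1, Srsf2, Hnrnpa1 and Hnrnpm, which rose most in 96 h spheroids. The lower row holds Srsf5, which did not pass the test at 96 h, Hnrnpdl, which rose less, and Srsf11 and Pnisr, which fell. In the upper row the 96 h monolayers lie far below the other 3 groups, with Srsf1 between 126 and 151 CPM there, and in the lower row Pnisr and Srsf11 are lower in spheroids than in monolayers at each time.

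Over time in monolayers, most SR protein and hnRNP mRNAs fell. All 8 SR proteins and 16 of 20 hnRNPs were lower at 96 h than at 48 h, and together 25 members were lower and 2 higher (edgeR, adjusted p below 0.05), where 31.3% and 30.1% of tested genes were called lower and higher (61.3% either way). The median log2 fold change was -0.38 over the members, -0.65 over the SR proteins and -0.42 over the hnRNPs, against 0.01 over all tested genes. Groups did not overlap for 28 of 38 members and for 63.8% of tested genes. Without replicate 3 of the 48 h monolayers, 24 members were lower and 1 was higher. This comparison shares the 96 h monolayer libraries with the comparison of formats at 96 h, so the values are not independent of those above.

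Srsf2 fell most, to 142, 164 and 157 CPM at 96 h, against 305, 293 and 365 CPM at 48 h in monolayers (log2 fold change -1.06 ± 0.080 (SE), adjusted p = 2.74e-09). Srsf1 was at 126, 145 and 151 CPM at 96 h, against 277, 269 and 288 CPM at 48 h (log2 fold change -0.98 ± 0.072 (SE), adjusted p = 1.83e-09). For both genes every 96 h library held less than every 48 h library. Hnrnpm was at 149, 154 and 154 CPM at 96 h, against 267, 265 and 326 CPM at 48 h (log2 fold change -0.91 ± 0.075 (SE), adjusted p = 8.64e-09), and Hnrnpa1 was at 279, 286 and 276 CPM at 96 h, against 474, 464 and 585 CPM at 48 h (log2 fold change -0.86 ± 0.077 (SE), adjusted p = 2.98e-08). In Srsf1, Srsf2, Hnrnpa1 and Hnrnpm, replicate 3 was the highest of the 48 h libraries, and its removal left all of these calls in place. Srsf5, which did not differ between the formats beyond the threshold, fell with the others in monolayers: it was at 251, 233 and 246 CPM at 96 h, against 304, 304 and 346 CPM at 48 h (log2 fold change -0.38 ± 0.070 (SE), adjusted p = 0.000133). The other SR proteins had log2 fold changes from -0.71 ± 0.078 for Srsf7 to -0.45 ± 0.065 for Srsf4 (SE).

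Hnrnpd, Hnrnph3 and Hnrnpr did not pass the test in monolayers, and Hnrnpdl rose. Hnrnpdl was at 129, 127 and 123 CPM at 96 h, against 116, 109.9 and 116 CPM at 48 h (log2 fold change 0.15 ± 0.059 (SE), adjusted p = 0.0391). Scaf4, which binds the tail of RNA polymerase II and in human cells guards against early polyadenylation, was at 60.5, 60.8 and 56.4 CPM at 96 h, against 57.2, 52.6 and 41.1 CPM at 48 h, with overlap (log2 fold change 0.24 ± 0.097 (SE), adjusted p = 0.0429). Both rises were small and were lost with the DESeq2 Wald test, which called no member higher. The Hnrnpdl call was also lost when any 1 of the 96 h spheroids, replicate 1 or 2 among 96 h monolayers, or replicate 2 among 48 h monolayers was left out (highest adjusted p over all settings 0.143), and the Scaf4 call without replicate 3 of the 48 h monolayers, 3 of the 48 h spheroids, 1 or 2 of the 96 h monolayers, or 2 or 3 of the 96 h spheroids (highest 0.226). Of the other genes, Srsf10 was called lower (log2 fold change -0.29 ± 0.064, SE), a call that was lost with total-count scaling and on log2 FPKM values, with a highest log2 fold change of 0.0185 over the settings. The genes Srsf11, Srsf12, Srsf13b, Clasrp, Pnisr, Sfswap, Srek1ip1 and Sugp2 did not pass.

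Over time in spheroids, few members changed. No SR protein passed the test, 5 hnRNPs and Srek1ip1 rose, and Sugp2 fell. At an unadjusted p below 0.05, 1 SR protein was higher (Srsf1) and 1 lower (Srsf5), and the DESeq2 Wald test called 0 higher and 1 lower (Srsf5). The counts were 6 higher and 1 lower of 38 (edgeR, adjusted p below 0.05), where 19.3% and 20.5% of tested genes were called higher and lower (39.8% either way). The median log2 fold change was 0.08 over the members, 0.02 over the SR proteins and 0.135 over the hnRNPs, against 0.01 over all tested genes. Groups did not overlap for 21 of 38 members and for 53.8% of tested genes. The count of rises was 10 without replicate 3 of the 48 h monolayers and 12 when the spheroid libraries were fitted alone. A p that misses the threshold does not show equal levels: the SR protein log2 fold changes ran from -0.17 ± 0.070 for Srsf5 to 0.16 ± 0.070 for Srsf1 (SE).

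Srek1ip1 was at 17.9, 15.5 and 18.5 CPM at 96 h, against 14.5, 11.9 and 11.7 CPM at 48 h in spheroids (log2 fold change 0.44 ± 0.12 (SE), adjusted p = 0.00684). Hnrnpd was at 165, 157 and 166 CPM at 96 h, against 136, 131 and 128 CPM at 48 h (log2 fold change 0.31 ± 0.077 (SE), adjusted p = 0.00378). Hnrnpdl was at 153, 159 and 157 CPM at 96 h, against 134, 126 and 124 CPM at 48 h (log2 fold change 0.29 ± 0.058 (SE), adjusted p = 0.000637). In all 3 genes every 96 h library was above every 48 h library. Hnrnph2 rose by 0.24 ± 0.066, Hnrnpa3 by 0.24 ± 0.082 and Hnrnpul2 by 0.21 ± 0.064 on the log2 scale (SE). The Hnrnpa3 call was lost without replicate 2 or 3 of either spheroid group (highest adjusted p over all settings 0.105), and the Hnrnpul2 call without replicate 2 of the 48 h spheroids or replicate 3 of the 96 h spheroids (highest 0.0677). Sugp2, a protein with SURP and G-patch domains found in splicing factors, was at 19.2, 14.9 and 16.9 CPM at 96 h, against 21.0, 24.2 and 23.8 CPM at 48 h (log2 fold change -0.43 ± 0.12 (SE), adjusted p = 0.00747), with no overlap. Hnrnpdl was thus called higher in all 4 pairwise comparisons, higher in spheroids than in monolayers at each time and higher at 96 h than at 48 h in each format. The call at 48 h was kept in 16 of 22 other settings and was lost, among others, without replicate 2 of the 48 h monolayers or replicate 1 of the 48 h spheroids (highest adjusted p 0.155), and the call in monolayers was kept in 12 of 22.

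**Figure D4:**
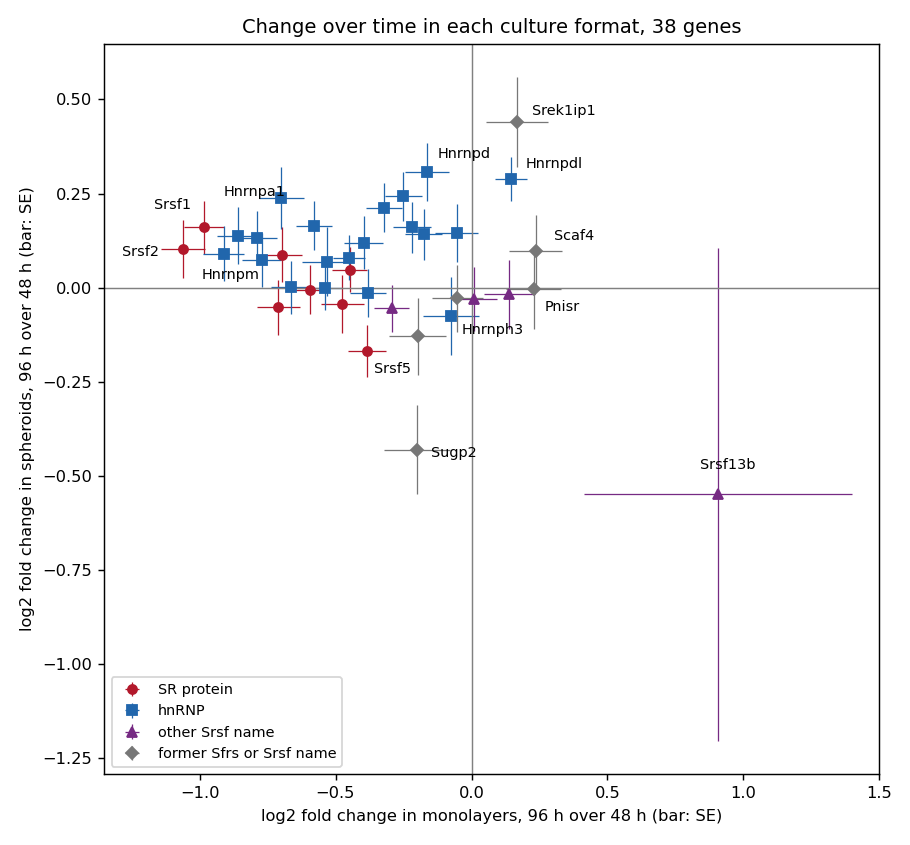
Log2 fold change of 96 h over 48 h in monolayers (horizontal axis) and in spheroids (vertical axis) for the 38 genes, with SE bars and a symbol for each class; the 2 axes rest on different libraries. SR protein and hnRNP genes spread to the left, as far as -1.06 for Srsf2, while staying between -0.17 and 0.31 on the vertical axis.

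Whether the difference between the formats itself depended on time was tested as an interaction, in which the log2 fold change at 48 h is subtracted from the one at 96 h. It was above 0 in 25 of 38 members and below 0 in none (edgeR, adjusted p below 0.05), where 26.9% and 26.4% of tested genes were called above and below 0 (53.3% either way). None was below 0 at an unadjusted p below 0.05 or with the DESeq2 Wald test (0 each). The median was 0.48 over the members, against -0.02 over all tested genes. The 25 were 7 of 8 SR proteins, 17 of 20 hnRNPs and Srsf10, and the count without replicate 3 of the 48 h monolayers was 24. Srsf2 and Srsf1 had the largest values, 1.16 ± 0.11 (SE, adjusted p = 8.76e-08) and 1.14 ± 0.10 (SE, adjusted p = 2.74e-08), followed by Hnrnpm at 1.00 ± 0.10 (SE, adjusted p = 2.69e-07) and Hnrnpa1 at 1.00 ± 0.11 (SE, adjusted p = 4.58e-07). Srsf5 did not pass (0.22 ± 0.099, SE, adjusted p = 0.0762), nor did Hnrnpdl, Hnrnph3 and Hnrnpr. For Hnrnph1, called lower in spheroids at 48 h and higher at 96 h, the interaction was 0.52 ± 0.10 (SE, adjusted p = 0.000287). The value for Srsf10 was small (0.24 ± 0.089, SE, adjusted p = 0.0317), was kept in 10 of 21 other settings, and was called with the opposite sign, at -0.19, on log2 FPKM values. The other row of Srsf10, with 1466 counts in all, had an interaction of -0.81 (adjusted p = 0.0505). That row was called higher in 48 h spheroids (log2 fold change 0.66, adjusted p = 0.0287). None of the 6 renamed genes passed.

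The rest of the splicing machinery was examined with lists of companion genes. Of all tested genes, 37.3% were called higher and 36.5% lower in spheroids at 96 h, and 31.6% and 26.4% at 48 h. Over time, 30.1% were called higher and 31.3% lower in monolayers, and 19.3% and 20.5% in spheroids. Of 31 genes of the snRNPs and the core spliceosome, the particles that carry out splicing, all 31 were higher in spheroids at 96 h (median log2 fold change 0.75), with Snrpe, Snrpg and Snrpa1 at 1.38 ± 0.098, 1.19 ± 0.095 and 1.07 ± 0.10 (SE). At 48 h, 22 were higher and 2, Snrpb2 and Sf3b1, lower, with a median of 0.26, and Prpf31, Eftud2 and Snrpf rose most, by 0.52, 0.51 and 0.48. Over time, 23 were lower and 1 higher in monolayers (median -0.35), and 6 were higher and none lower in spheroids. Snrpe, a core Sm protein, was at 90.0 ± 4.85 CPM in 96 h spheroids, 34.6 ± 3.79 CPM in 96 h monolayers, 76.3 ± 1.04 CPM in 48 h spheroids and 69.9 ± 10.7 CPM in 48 h monolayers (SD, n = 3 each). The interaction was above 0 in 24 and below 0 in 1 of the 31, against 26.9% and 26.4% of tested genes.

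The listed SR protein kinases and nuclear import receptors moved in both directions. Of 10 tested, 3 were higher and 3 lower in spheroids at 96 h (median log2 fold change -0.00164), where 37.3% and 36.5% of all tested genes were. At 48 h, 3 were higher and 2 lower, where 31.6% and 26.4% of all tested genes were. In monolayers, 5 were higher and 3 lower at 96 h than at 48 h, where 30.1% and 31.3% of all tested genes were. Without replicate 3 of the 48 h monolayers these were 3 and 2. Tnpo3, the receptor that imports SR proteins, rose in spheroids at 96 h by 0.51 ± 0.058 and at 48 h by 0.25 ± 0.058 (SE), and Srpk1 by 0.28 ± 0.070 and 0.23 ± 0.070 (SE). Srpk2 fell in 96 h spheroids (log2 fold change -0.46 ± 0.066, SE) and was at 50.5 ± 1.11 CPM there and 69.4 ± 2.07 CPM in 96 h monolayers (SD, n = 3 each). Clk1, a nuclear kinase of SR proteins, was at 102 ± 6.96 CPM in 96 h spheroids and 103 ± 2.997 CPM in 96 h monolayers, and at 57.8 ± 6.53 CPM in 48 h spheroids and 79.4 ± 2.36 CPM in 48 h monolayers (SD, n = 3 each). Clk1 was lower in spheroids at 48 h (log2 fold change -0.46 ± 0.078 (SE), adjusted p = 6.89e-05), and rose over time in both formats, by 0.81 ± 0.077 in spheroids and 0.38 ± 0.075 in monolayers (SE). Clk4 was lower in spheroids at each time, with log2 fold changes of -0.29 ± 0.079 at 96 h and -0.30 ± 0.083 at 48 h (SE). Tnpo1, the other import receptor listed, was also called lower in 96 h spheroids, and higher at 96 h than at 48 h in monolayers.

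Among 36 other splicing regulators tested, 25 were higher and 8 lower in spheroids at 96 h (median 0.65), and 13 were higher and 9 lower at 48 h. Of all tested genes, 37.3% and 36.5% were called higher and lower at 96 h, and 31.6% and 26.4% at 48 h. The list's counts at 48 h were near those shares. The largest rises at 96 h were of Khdrbs3, a STAR-family protein related to Sam68, at 1.88 ± 0.075 (SE), of Esrp2, an epithelial splicing regulator, at 1.61 ± 0.11 (SE), and of Mbnl3, of the muscleblind family, at 1.43 ± 0.067 (SE). Khdrbs3 was at 110.3 ± 3.10 CPM in 96 h spheroids and 30.0 ± 1.99 CPM in 96 h monolayers, and at 68.9 ± 2.75 CPM in 48 h spheroids and 33.7 ± 3.23 CPM in 48 h monolayers (SD, n = 3 each). Qk, the quaking RNA-binding protein, ran the other way at each time, at 142 ± 1.83 CPM in 96 h spheroids and 271 ± 11.3 CPM in 96 h monolayers, and 144 ± 13.2 CPM in 48 h spheroids and 289.6 ± 14.6 CPM in 48 h monolayers (SD, n = 3 each). Nova1 and Nova2, known as neuronal regulators, also fell in 96 h spheroids but stood below 5 CPM in every group mean. In monolayers over time 26 of the 36 were lower and 1 was higher, where 31.3% and 30.1% of all tested genes were. In spheroids over time 17 were higher and 4 lower, where 19.3% and 20.5% of all tested genes were.

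Of 14 genes of nonsense-mediated decay and the exon junction complex, which act on the poison exon transcripts described above, 9 were higher and 4 lower in spheroids at 96 h (median 0.50), and 8 higher and none lower at 48 h. Of all tested genes, 37.3% and 36.5% were called higher and lower at 96 h, and 31.6% and 26.4% at 48 h. The exon junction proteins Magoh, Eif4a3 and Rbm8a led the rises at 96 h, at 0.97 ± 0.081, 0.78 ± 0.071 and 0.67 ± 0.074 (SE). Smg1, the kinase that activates Upf1, led the falls at -0.53 ± 0.12 (SE), ahead of Smg6 at -0.39 ± 0.089 and Upf2 at -0.32 ± 0.092 (SE). In monolayers over time 6 were higher and 6 lower, where 30.1% and 31.3% of all tested genes were. The same exon junction proteins were among the falls, with Magoh at -0.51 ± 0.083 (SE), and Smg1 was the largest rise, at 0.66 ± 0.12 (SE). All 15 proliferation genes were higher in spheroids at each time, with a median log2 fold change of 3.85 at 96 h and 0.90 at 48 h, and all 15 were lower at 96 h than at 48 h in monolayers.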

How the data were processed

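mRNA libraries of 12 cultures were sequenced. Per the submitters' processing notes, the tools were RSEM 1.2.30, Bowtie 1.0.1 and bcl2fastq 2.15.0, and the build was mm9. The authors deposited expected counts (RSEM estimates per gene, given as whole numbers) and log2 values of FPKM plus 1, and an annotation of UCSC known genes, whose symbols chose the members. The members and the companion lists were chosen with earlier results of these data known. A marker of 1 companion list is not reported here. Where a symbol had more than 1 row, the row with the highest mean count was used.

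Counts were analysed with edgeR 4.0.16 in R 4.3.3. Rows were kept by filterByExpr (count of at least 10, total of at least 15), which left 13951 of 28427. Libraries were scaled by TMM (factors 0.923 to 1.07), and 1 quasi-likelihood model with group as its term was fitted to all 12 libraries (common dispersion 0.00501) and tested in 5 contrasts. Tests were 2-sided, with Benjamini-Hochberg adjustment per contrast over all tested genes, and 0.05 was the threshold. The SE is the size of the log2 fold change divided by the square root of F. CPM used TMM-adjusted totals, FPKM was computed back from the log2 values, and both carry an SD over 3 libraries. The procedure was tested on simulated data. Members named with full values were those called with the 4 largest rises and 4 largest falls in a contrast, and from each companion list at most 3 of each. Genes named because they did not pass, or for their family, were added after their values were seen. Alternatives were other scalings, filters, DESeq2 1.42.0, limma 3.58.1 on the log2 FPKM values, a replicate block, the compared groups alone, summed rows and leaving out each library. Promoters (RefSeq) and transcripts (GENCODE vM21) are on GRCm38, another build than the counts, and were joined by symbol. RefSeq gives Srsf13b as another name of Srsf12, and Srsf12 also as another name of Srek1, so these 2 rows keep the deposited names and were joined to neither table.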

Additional observations from a re-analysis of the deposited data

Results flagged for a closer look

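In 25 members the difference between spheroids and monolayers at 96 h differed from that at 48 h by the interaction test of edgeR (adjusted p below 0.05 over all 13951 genes). Of all tested genes, 26.9% were called above 0 and 26.4% below 0 (53.3% either way). Each value is the log2 fold change of spheroids over monolayers at 96 h less the one at 48 h, and every one was above 0. Among SR proteins it was 1.16 for Srsf2, 1.14 for Srsf1, 0.78 for Srsf3, 0.66 for Srsf7, 0.59 for Srsf6, 0.50 for Srsf4 and 0.43 for Srsf9. Among hnRNPs it was 1.00 for Hnrnpm, 1.00 for Hnrnpa1, 0.94 for Hnrnpa3, 0.92 for Hnrnpl, 0.85 for Hnrnpab, 0.75 for Hnrnpk, 0.66 for Hnrnpa2b1 and 0.60 for Hnrnpa0. It was 0.54 for Hnrnpll, 0.53 for Hnrnpul2, 0.53 for Hnrnpf, 0.52 for Hnrnph1, 0.49 for Hnrnph2, 0.47 for Hnrnpd, 0.38 for Hnrnpul1, 0.37 for Hnrnpc and 0.32 for Hnrnpu. For Srsf10 it was 0.24, a call kept in 10 of 21 other settings and of opposite sign on log2 FPKM values. For Hnrnph1 the spheroid effect was called below 0 at 48 h and above 0 at 96 h. The Hnrnph1 groups overlapped at 48 h, and that call was kept in 15 of 22 other settings.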

How the results depend on the processing

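No median over the members reversed its direction, nor did a gene among the 4 largest rises or falls of a contrast, but the Srsf10 interaction (0.24) was called at -0.19 on log2 FPKM values. The counts of members higher in spheroids at 96 h and at 48 h, lower at 96 h in monolayers and above 0 in the interaction stayed within 1.5 times of the values given under every alternative run. Smaller counts moved. Members lower in 48 h spheroids numbered 4, but 1 with total-count scaling and 2 on log2 FPKM values, and 1 to 4 when single libraries were left out. Members higher at 96 h in monolayers numbered 2, but 0 with DESeq2-type size factors and with the DESeq2 Wald test, 5 with total-count scaling, 4 on log2 FPKM values, 1 with the compared groups alone, and 0 to 3 without single libraries. Members higher at 96 h in spheroids numbered 6, but 12 with the compared groups alone and 4 to 10 without single libraries. Members lower there numbered 1, but 2 with upper-quartile or total-count scaling, the stricter filter, DESeq2 or the compared groups alone, 3 on log2 FPKM values, and 1 to 2 without single libraries. Interactions below 0 numbered 0, but 2 with total-count scaling and 1 on log2 FPKM values. The cause of these moves was not tested. Calls kept in every setting numbered 28 of 31 at 96 h and 13 of 22 at 48 h between formats, 21 of 27 in monolayers and 5 of 7 in spheroids over time, and 19 of 25 in the interaction.

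The members' median was 0.28 at 48 h with total-count scaling and 0.259 on log2 FPKM values, against 0.171 with TMM. In monolayers it was -0.21 and -0.236 under these settings, against -0.382, and in the interaction 0.293 and 0.274, against 0.482. Total-count scaling moved the median of all tested genes to 0.16 at 48 h, to 0.18 over time in monolayers and to -0.20 in the interaction. The share of higher calls among all calls then was 65.1%, 66.2% and 34.2%, against 54.5%, 49.1% and 50.4% with TMM. Deviations from group means correlated from -0.11 to 0.0881 between libraries of different groups with the same replicate number. With different numbers the range was -0.117 to 0.118. These values do not show whether a number marked a shared animal or day. With the replicate number as a block the members higher and lower were 28 and 3 at 96 h, 18 and 4 at 48 h, 3 and 25 in monolayers, 6 and 1 in spheroids, and 25 and 0 in the interaction. Without replicate 3 of the 48 h monolayers, the companion genes higher and lower in spheroids at 48 h were 25 and 1 of the snRNP list (22 and 2 with it), 2 and 2 of the kinase list (3 and 2), 13 and 8 of the other regulators (13 and 9) and 7 and 0 of the decay list (8 and 0). In monolayers over time they were 1 and 24 of the snRNP list (1 and 23), 3 and 2 of the kinase list (5 and 3), 1 and 27 of the other regulators (1 and 26) and 6 and 5 of the decay list (6 and 6), and the snRNP interactions above and below 0 were 22 and 0 (24 and 1). Depth limits Srsf13b, with 99 counts in all.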
